A study of Mus musculus with 6 samples.

Results

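Mouse ATDC5 cells, a chondrogenic cell line, were kept with IL-1β alone or with IL-1β plus the FSCN1 inhibitor NP-G2-044. A set of 10 genes that report ERK signaling was followed in them, and most of these genes also restrain it. They were taken by symbol from the deposited expression table, and all 10 of the 10 symbols were found among its 16880 genes: the phosphatase genes Dusp4, Dusp5 and Dusp6, the Sprouty genes Spry1, Spry2 and Spry4, the Spred genes Spred1 and Spred2, and the transcription factor genes Etv4 and Etv5. Both groups carried 10 ng/mL IL-1β, an inflammatory cytokine, and the inhibitor was added at 10 μmol/L in the second group only, with 3 libraries each and a treatment time of 24 h in the methods. The sample titles name the inhibitor NP-G2-044, whereas the treatment label of the same samples reads NP-G2-047. The labels give the ATDC5 line, which is a single cell line rather than cells from several animals, while the methods describe the IL-1β model in primary mouse chondrocytes. The methods also list a DMSO group, not analysed here, so the comparison sets the inhibitor on top of IL-1β against IL-1β and says nothing of IL-1β itself.

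ERK is the last kinase of the cascade that runs from growth factor receptors through Ras, Raf and MEK, and it is known in cartilage for carrying FGF receptor signals that restrain chondrocyte growth and maturation. Active ERK switches on genes whose products turn the cascade down again: dual-specificity phosphatases remove the activating phosphates from ERK, while Sprouty and Spred proteins act higher up, at the receptors, Ras and Raf. The PEA3 transcription factors, encoded by Etv4 and Etv5, are induced by the same signal but carry it forward to further genes. The transcripts are therefore widely read as a record of ERK output, although RNA levels do not measure ERK phosphorylation, and no protein was measured in these libraries.

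Library totals ran from 16615824 to 16878164 reads with IL-1β and from 17529844 to 17735860 with the inhibitor. Libraries of the same group differed by 1.54 to 2.39 times the variance of random read sampling, so none was a repeat deposit of another. Of the 13 chondrocyte markers listed, 9 were measured, and the defining cartilage collagen gene Col2a1 was near 0, with 32 reads in all under IL-1β and 6 under the inhibitor. These 9 markers summed to between 21.9 and 22.7 TPM and to between 17.1 and 17.6 TPM, with Matn1 at 0 in every library; here TPM is the authors' level scaled for gene length and library size. Of the 5 chondrocyte markers tested 1 was called higher, 3 lower and 1 not called, beside 40.2% higher and 39.8% lower among all tested genes. Sox9, the master regulator gene of chondrocytes, rose from 6.44 ± 0.675 to 11.4 ± 0.0569 TPM (SD, n = 3 each, adjusted p = 5.07e-16 by edgeR). Sox5 fell from 10.3 ± 0.0839 to 2.27 ± 0.245 TPM (adjusted p = 5.06e-33 by edgeR). Col11a2 fell from 5.01 ± 0.2287 to 3.43 ± 0.1845 TPM (adjusted p = 1.18e-08 by edgeR). Col2a1 was also called lower, on the few reads given above. Acan, Col9a1, Hapln1 and Snorc were not analysed here. Summed fibroblast markers, all 10 of which were measured, went from between 5380 and 5570 TPM to between 1070 and 1150 TPM, with Thy1 at 0 in every library. Nearly all of that sum was S100a4, with means of 4313 and 730 TPM, and Col1a2, with means of 1098 and 331 TPM. Of the 7 fibroblast markers tested 6 were called lower, beside 39.8% of all tested genes, and Pdgfra was called higher. Summed macrophage markers, with 5 of 6 measured, went from between 11.3 and 14.4 TPM to between 124 and 135 TPM, nearly all of it Cd68, which also serves lysosomes, whereas the leukocyte gene Ptprc was at 0 in every library. Osteoblast markers, with 4 of 6 measured, summed to between 23.4 and 25.9 TPM and to between 12.4 and 13.6 TPM. Most of that was Runx2, with means of 20.9 and 12.4 TPM. The 5 endothelial markers summed to between 0.2 and 0.73 TPM over all libraries. In such bulk samples a change in the mix of cells and a change in RNA per cell cannot be told apart, and the part of these marker shifts in the values below was not tested.

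All 10 genes were higher with NP-G2-044. Each had an adjusted p below 0.05 in the quasi-likelihood test of edgeR over the 11983 genes that passed the filter on low counts, a call that 80% of all tested genes received in either direction and 40.2% in the same direction. Past the study's second cutoff as well, a log2 fold change above 1, were 4 of the 10 genes, namely Dusp4, Etv5, Spry1 and Spry4, against 6.48% of all tested genes, or 16.6% counting both directions. The 3 inhibitor-treated libraries lay above the 3 IL-1β libraries for all 10 genes, which held for 38% of tested genes, while 41.4% lay wholly below. Spry4 reached the test only through its reads in the inhibitor-treated group. With it set aside all 9 remaining genes were called higher, none with overlapping groups, and 3 passed both cutoffs. The median log2 fold change of the 10 genes was 0.95, and 0.91 without Spry4, beside 0.002 for all tested genes. Together the 10 genes summed to 44.15, 45.02 and 47.86 TPM with IL-1β and to 123.2, 117.6 and 118.4 TPM with the inhibitor. Dusp4 alone made up 52% of that rise.

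**Figure D1:**
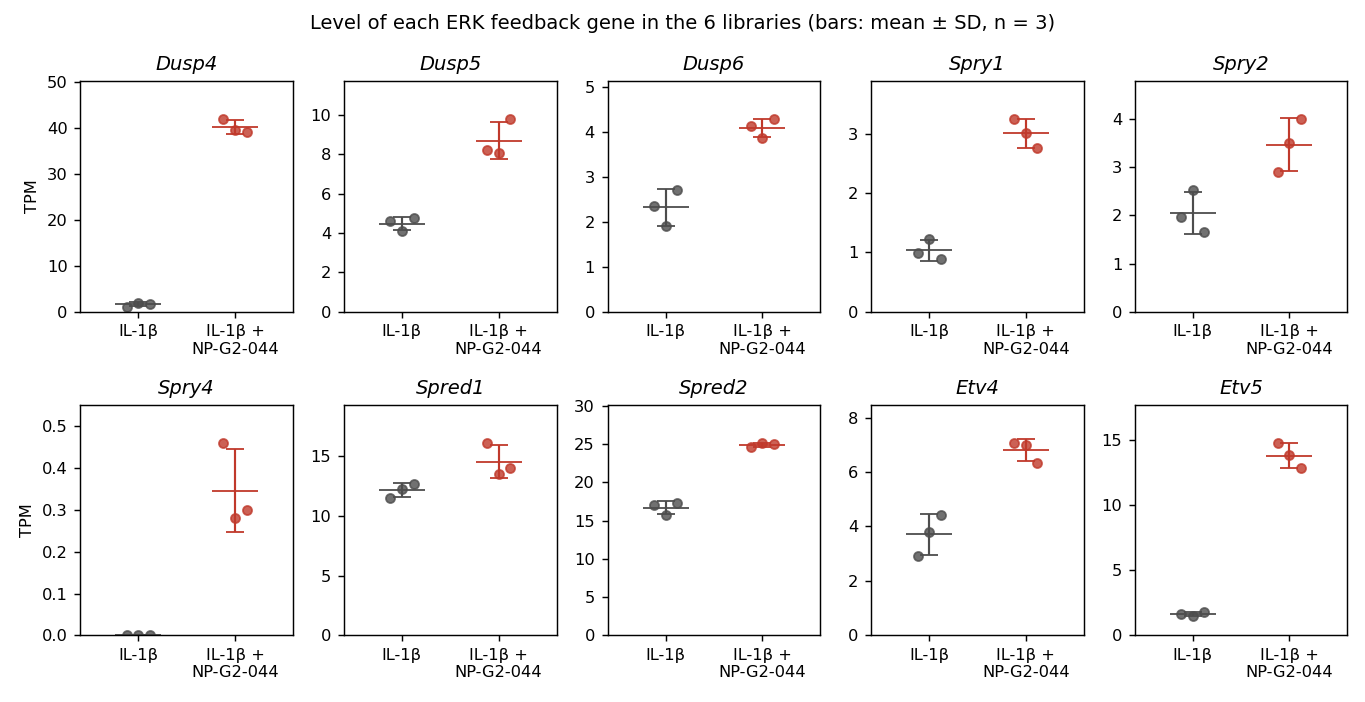
Level of each of the 10 ERK feedback genes in TPM (vertical axis, linear from 0 with its own range per panel) in the 3 IL-1β libraries (grey) and the 3 IL-1β plus NP-G2-044 libraries (red); points are libraries, bars the mean and SD. In every panel the red points lie above the grey ones, widely apart for Dusp4 (1.12 to 1.96 against 39.2 to 41.8 TPM) and narrowly for Spred1 (11.5 to 12.6 against 13.5 to 16.1 TPM).

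The 3 phosphatase genes all rose, with log2 fold changes from 0.84 to 4.68. Dusp4 (Entrez gene 319520, mm10 chr8:34807610-34819894) encodes a nuclear phosphatase that inactivates ERK and also the stress kinases JNK and p38. Its reads numbered 26, 44 and 39 under IL-1β and 1010, 974 and 969 under the inhibitor, or 1.12, 1.96 and 1.70 TPM against 41.8, 39.4 and 39.2 TPM. The groups were far apart, and the spread within either was small beside the gap. Its log2 fold change, always given as inhibitor-treated over IL-1β alone, was 4.68 (standard error, SE, 0.0927, adjusted p = 5.93e-43 by edgeR), a 25.7-fold rise. It ranked 24 from the top of the 11983 tested genes, of which 0.192% had a higher log2 fold change.

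Dusp5 (Entrez gene 240672, mm10 chr19:53529145-53541809) encodes a nuclear phosphatase selective for ERK. Its level was 4.59, 4.10 and 4.75 TPM with IL-1β and 8.21, 8.09 and 9.78 TPM with the inhibitor, on 220 and 458 reads in all. Every treated library exceeded every IL-1β library, replicate 3 being the highest. The log2 fold change of 0.98 (SE 0.12, adjusted p = 1.95e-10 by edgeR) lay just under the cutoff of 1, and with single libraries left out it moved between 0.89 and 1.04, on either side of it. Exons of Dusp5 share 547 bases with an antisense RNA on the opposite strand, and no source used here says whether strand entered the counting, so its reads cannot be separated from those of Dusp5.

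Dusp6 (Entrez gene 67603, mm10 chr10:99263231-99267489) encodes a cytoplasmic ERK phosphatase and is among the most used readouts of the pathway. It went from 2.36, 1.90 and 2.72 TPM to 4.13, 3.87 and 4.28 TPM, on 187 and 353 reads. The groups did not overlap, the highest IL-1β value being 2.72 and the lowest treated value 3.87 TPM. Its log2 fold change was 0.84 (SE 0.133, adjusted p = 1.28e-07 by edgeR). Of the phosphatase genes in this set, Dusp5 and Dusp6 thus rose by less than 1 log2 unit where Dusp4 rose by 4.68.

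Sprouty proteins are induced inhibitors that block signals from receptor tyrosine kinases to the Ras and Raf step. All 3 genes were weakly expressed, with family sums of 3.08 ± 0.611 TPM and 6.82 ± 0.225 TPM (SD, n = 3 each), and their values rest on few reads. Spry1 (Entrez gene 24063, mm10 chr3:37639947-37644599) had 22, 25 and 18 reads with IL-1β and 74, 70 and 62 with the inhibitor, or 0.99, 1.23 and 0.89 TPM against 3.24, 3.02 and 2.76 TPM. No treated library came near the IL-1β range. The log2 fold change was 1.59 (SE 0.193, adjusted p = 1.69e-10 by edgeR). Pooled over each group and scaled by library totals, its reads stood in a ratio of 3.01, with an exact 95% binomial interval of 2.27 to 4.04, which like the other such intervals covers counting error only. Exons of Spry1 overlap 710 bases of an unclassified transcript on the opposite strand.

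Spry2 (Entrez gene 24064, mm10 chr14:105891947-105896819), whose product also binds the ubiquitin ligase Cbl, had the smallest rise of the family. It had 39, 51 and 32 reads with IL-1β and 63, 75 and 84 with the inhibitor, or 1.96, 2.52 and 1.66 TPM against 2.90, 3.51 and 3.99 TPM. The groups stayed apart, but narrowly, the highest IL-1β library being replicate 2 and the lowest treated library replicate 1. Its log2 fold change was 0.79 (SE 0.17, adjusted p = 4.22e-05 by edgeR), and pooling its reads as for Spry1 gave a ratio of 1.73 (exact 95% binomial interval 1.38 to 2.17).

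Spry4 (Entrez gene 24066) was at 0 reads in all 3 IL-1β libraries and had 23, 14 and 15 reads in the treated ones, or 0.46, 0.28 and 0.30 TPM. Against a floor of 3 reads set for the pooled count of 0 over the 3 IL-1β libraries, the 52 treated reads were 16.5-fold higher. This is a rough lower bound, since it leaves out the counting error of the 52 reads. The adjusted p was 3.06e-10 by edgeR, but Spry4 passed the filter only through its treated reads, so that selection in part fixed this value. Even with the inhibitor it was the least abundant of the 10 genes, so the change ran from not detected at this depth to a low level.

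Spred proteins bring neurofibromin, an off switch of Ras, to the membrane. Their genes were the most abundant of the 10 with IL-1β and changed the least. Spred1 (Entrez gene 114715, mm10 chr2:117121071-117182279) was at 11.5, 12.2 and 12.6 TPM with IL-1β and at 16.1, 13.5 and 13.9 TPM with the inhibitor. Replicate 1 stood above the other treated libraries, and the lowest treated value, 13.5 TPM, was close to the highest IL-1β value, 12.6 TPM. Its log2 fold change of 0.28 (SE 0.0505, adjusted p = 2.79e-06 by edgeR) was the smallest of the 10, and 29.3% of tested genes had a higher one. When the test asked for more than a 1.2-fold change, Spred1 was not called (adjusted p = 0.238 by edgeR), whereas the other 9 genes were.

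Spred2 (Entrez gene 114716, mm10 chr11:19924442-20024026) went from 17.0, 15.8 and 17.3 TPM to 24.6, 25.1 and 25.0 TPM. The treated libraries lay close together and well clear of the IL-1β range. The log2 fold change was 0.63 (SE 0.0478, adjusted p = 2.5e-17 by edgeR).

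The PEA3 factor genes both rose, by unequal amounts. Etv5 (Entrez gene 104156, mm10 chr16:22381313-22439570) had 64, 55 and 67 reads with IL-1β and 590, 564 and 527 with the inhibitor, or 1.68, 1.49 and 1.77 TPM against 14.8, 13.8 and 12.9 TPM. No value of one group approached the other. Its log2 fold change was 3.10 (SE 0.094, adjusted p = 1.93e-34 by edgeR), an 8.59-fold rise that placed it 81st from the top of the 11983 tested genes. Etv4 (Entrez gene 18612, mm10 chr11:101769747-101785310) went from 2.91, 3.79 and 4.43 TPM to 7.06, 7.0 and 6.34 TPM, on 240 and 474 reads. The IL-1β libraries were spread widely, from 2.91 to 4.43 TPM, yet none reached the treated range. The log2 fold change of Etv4 was 0.91 (SE 0.119, adjusted p = 1.48e-09 by edgeR), and it ranged from 0.77 without replicate 1 of the IL-1β group to 1.05 without replicate 3.

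**Figure D2:**
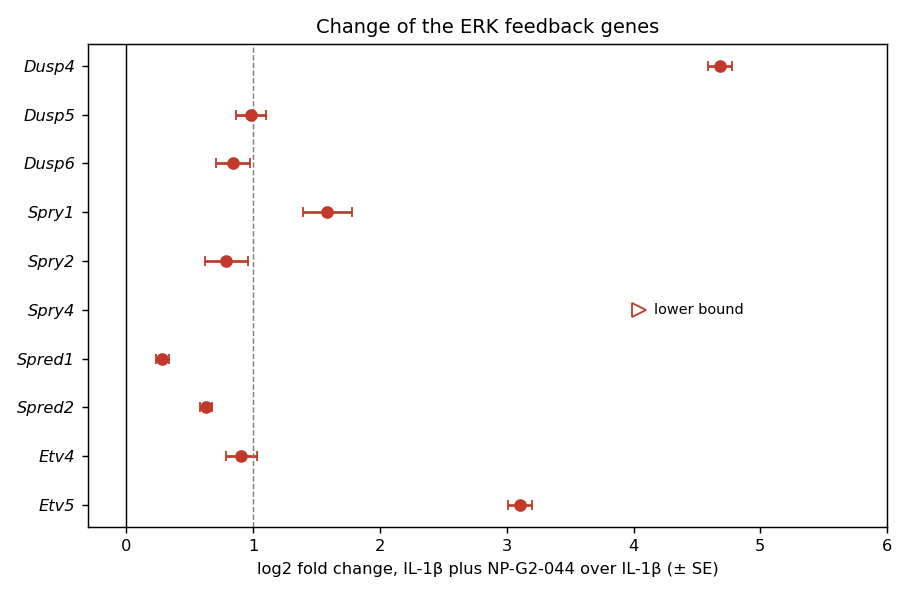
Log2 fold change of each gene with the inhibitor relative to IL-1β alone (horizontal axis), with its standard error as the bar. The dashed line marks the cutoff of 1 and the open triangle the rough lower bound of Spry4, which had no read with IL-1β. Dusp4 at 4.68 and Etv5 at 3.10 stand apart from the 6 genes with values between 0.28 and 0.98, with Spry1 at 1.59 between them.

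ETS factors such as Etv4 and Etv5 bind DNA around a GGAA core, and AP-1 is a further factor that ERK activates. RefSeq promoter sequences (GRCm38.p6) were at hand for 7 of the 10 genes, with 8 start sites. The 250 bases before each start were searched on both strands for the ETS site CCGGAA, for the AP-1 site TGANTCA, and, as an addition after the first search, for the core GGAA, which also occurs inside CCGGAA. None of the 8 windows held CCGGAA or TGANTCA, which are found in 22.1% and 4.44% of the windows of tested genes and in 12% and 6.75% of all 32851 windows. This says only that these letters are not in these windows. The core occurred in 7 of the 8, as in 92.9% of the windows of tested genes. Shown are the starts of Etv5, the gene with the largest rise among those with a sequence, and Spred1, the gene with the smallest, each 5′ to 3′ on the strand of the gene and with the core on either strand (GGAA or TTCC) in capitals:
Etv5, first start, chr16:22439571-22439820, minus strand: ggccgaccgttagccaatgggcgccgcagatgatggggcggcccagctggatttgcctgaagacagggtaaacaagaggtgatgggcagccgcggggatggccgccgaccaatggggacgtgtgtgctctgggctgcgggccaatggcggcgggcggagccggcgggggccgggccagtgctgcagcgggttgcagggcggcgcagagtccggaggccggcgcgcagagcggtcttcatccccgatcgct
Etv5, second start, chr16:22438369-22438618, minus strand: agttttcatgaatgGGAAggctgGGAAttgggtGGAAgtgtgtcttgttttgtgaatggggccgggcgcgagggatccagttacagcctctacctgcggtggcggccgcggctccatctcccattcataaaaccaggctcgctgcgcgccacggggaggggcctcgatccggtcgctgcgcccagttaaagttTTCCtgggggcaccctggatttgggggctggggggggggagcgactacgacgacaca
Spred1, chr2:117120821-117121070, plus strand: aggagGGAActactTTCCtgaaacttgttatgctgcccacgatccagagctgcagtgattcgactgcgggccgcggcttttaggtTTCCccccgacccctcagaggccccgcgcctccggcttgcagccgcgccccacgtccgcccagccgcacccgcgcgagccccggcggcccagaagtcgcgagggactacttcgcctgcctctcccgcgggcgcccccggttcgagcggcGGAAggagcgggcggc
The first Etv5 window held no core, the second held 4, and the Spred1 window also held 4.

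Since TPM is scaled for length, levels can be ordered between genes within a group. With IL-1β the order ran Spred2, Spred1, Dusp5, Etv4, Dusp6, Spry2, Etv5, Dusp4, Spry1 and Spry4. Neighbours overlapped in their ranges from Dusp5 to Etv4 and throughout from Dusp6 to Spry1. Neighbouring places in that lower stretch therefore cannot be told apart beyond the spread of 3 libraries. Genes further apart in it can have separate ranges, such as Dusp6 (1.90 to 2.72 TPM) and Spry1 (0.89 to 1.23 TPM). Under the inhibitor Dusp4 stood first, with 40.1 ± 1.44 TPM (SD, n = 3), above Spred2 at 24.9 ± 0.275 TPM (SD, n = 3). Etv5 stood at place 4, with 13.8 ± 0.95 TPM, within the range of Spred1 at 14.5 ± 1.38 TPM (SD, n = 3 each). Dusp5, Etv4, Dusp6, Spry2, Spry1 and Spry4 followed, with overlapping ranges only from Dusp6 to Spry2 and from Spry2 to Spry1.

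With these unequal rises the make-up of the families differed between the groups. Each family was taken as its members among the 10 genes. Summed over 3 genes, the phosphatases went from 8.07, 7.96 and 9.17 TPM to 54.1, 51.4 and 53.2 TPM, a 6.3-fold rise of the mean. Dusp4 supplied 13.9%, 24.6% and 18.5% of that sum under IL-1β and 77.2%, 76.7% and 73.6% under the inhibitor. The share of Dusp5 went the other way, from 53.4% ± 3.02 to 16.4% ± 1.71, and that of Dusp6 from 27.6% ± 3.23 to 7.74% ± 0.27 (SD, n = 3 each). Among these 3 genes Dusp5 led in each IL-1β library and Dusp4 in each treated library. Other phosphatase genes outside the 10 were more abundant than Dusp5 under IL-1β, such as Dusp16 with 15.3 ± 0.80 TPM and Dusp7 with 10.7 ± 0.63 TPM (SD, n = 3 each).

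A like exchange was seen for the PEA3 pair, whose sum went from 5.36 ± 0.808 to 20.6 ± 1.32 TPM (SD, n = 3 each). Etv4 held 63.4%, 71.8% and 71.5% of it with IL-1β, and Etv5 held 67.6%, 66.4% and 67% with the inhibitor. Among the Sproutys, Spry2 held 66.2% ± 1.06 with IL-1β and 50.7% ± 6.37 with the inhibitor, while Spry1 went from 33.8% ± 1.06 to 44.2% ± 4.97 and Spry4 from 0 to 5.11% ± 1.61 (SD, n = 3 each). The Spred shares moved least, Spred2 holding 57.9% ± 1.71 and 63.3% ± 2.44 (SD, n = 3 each), with its lowest treated library, at 60.5%, close to its highest IL-1β library, at 59.7%. Taken from CPM, which is not scaled for length, the share of Spry4 was 10.8% ± 3.08 with the inhibitor, and Spred1 led Spred2 under IL-1β, at 55.2% ± 1.98 (SD, n = 3 each). On that scale Etv4 and Etv5 each held 50% in replicate 1 of the IL-1β group. For each of the 10 TPM shares the groups did not overlap, and the two-sided exact permutation test gave p = 0.1, raw and adjusted over the 10 shares, the smallest value that 3 libraries against 3 allow, so this design cannot reach 0.05.

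**Figure D3:**
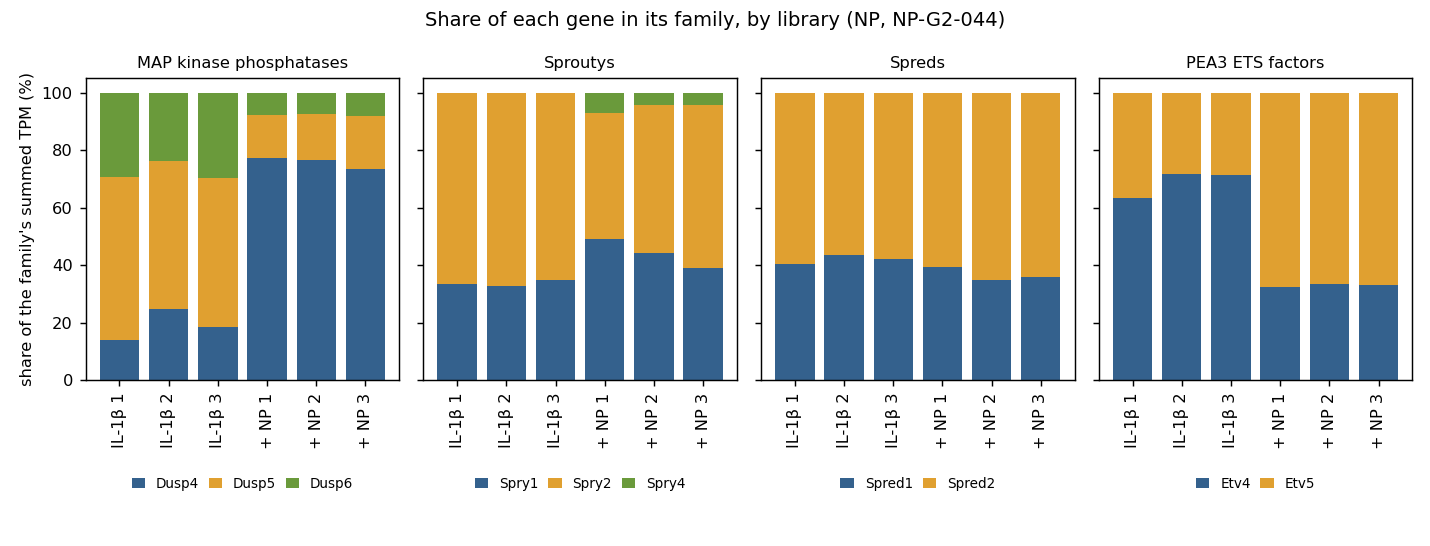
Share of each gene in the summed TPM of its family (vertical axis, %), as stacked bars for the 3 IL-1β libraries and the 3 IL-1β plus NP-G2-044 libraries. Dusp4 takes 13.9% to 24.6% of the phosphatase sum in the first 3 bars and 73.6% to 77.2% in the last 3, and Etv5 passes Etv4 in each treated library, whereas the Spred bars change little.

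The nearest relatives of these genes did not share one direction. Of 10 further phosphatase, Sprouty, Spred and PEA3 genes, 9 were tested; 4 were higher and 4 lower with an adjusted p below 0.05 by edgeR, against 40.2% and 39.8% of all tested genes, with a median log2 fold change of 0.04. Dusp8 and Dusp16, which encode phosphatases that act mainly on JNK and p38, rose by 1.90 and 1.07 on the log2 scale, Dusp16 from 15.3 ± 0.80 to 31.2 ± 0.923 TPM (SD, n = 3 each). Dusp9, an ERK phosphatase gene, had a log2 fold change of 0.43 and Spred3 one of 0.64, both called. Dusp1, the inducible nuclear phosphatase gene of the stress kinases, fell from 8.87 ± 0.246 to 4.91 ± 0.54 TPM (SD, n = 3 each), with a log2 fold change of −0.82 (adjusted p = 2.8e-09 by edgeR), and Dusp10 had one of −0.44. Dusp7 was not called, at 0.04 (adjusted p = 0.58 by edgeR). Dusp2, with 2 and 12 reads, was below the filter. In the fit without the filter it was called higher, at 2.32 (adjusted p = 0.0307 by edgeR).

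Within the Sprouty and PEA3 families the relatives moved against the 5 genes above. Spry3 went from 0.693 ± 0.205 to 0.297 ± 0.0569 TPM (SD, n = 3 each), with a log2 fold change of −1.18 (adjusted p = 9.57e-05 by edgeR) on 91 and 42 reads. Etv1, the third PEA3 gene, went from 1.11 ± 0.03 to 0.32 ± 0.0794 TPM (SD, n = 3 each), with a log2 fold change of −1.82 (adjusted p = 1.33e-10 by edgeR) on 156 and 46 reads. Both had no treated library within the IL-1β range.

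Of 16 other genes that ERK is known to induce 12 were tested, 8 were higher (66.7%), 2 lower (16.7%) and 2 not called, beside 40.2% higher and 39.8% lower among all tested genes, with a median log2 fold change of 0.37. Past both cutoffs, where 6.48% of all tested genes were higher, were Mafk, a small Maf transcription factor gene, at 1.62, the cytokine gene Lif at 1.26 and the immediate early gene Ier2 at 1.02. The AP-1 gene Fosl1 rose from 38.5 ± 2.2 to 58.5 ± 3.57 TPM (SD, n = 3 each), the ephrin receptor gene Epha2 from 14.8 ± 0.873 to 25.6 ± 0.741 TPM, and the growth regulator Myc from 249 ± 1.96 to 343 ± 7.25 TPM (SD, n = 3 each). The cyclin gene Ccnd1 had a log2 fold change of 0.25. Phlda1, often read together with Dusp6 and Spry4, fell by 0.92 on the log2 scale (adjusted p = 8.39e-16 by edgeR), and the immediate early gene Egr1 by 0.32 (adjusted p = 0.0035 by edgeR). Ier3 had a log2 fold change of −0.03 and Plaur one of 0.10, neither called. Fos, with 30 and 25 reads, Egr3, with 29 and 3, Egr2 and Epha4 were below the filter. In the fit without the filter Egr3 was called lower, at −3.19 (adjusted p = 1.4e-05 by edgeR), and Fos, Egr2 and Epha4 were not called.

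Genes of the cascade itself moved in both directions, mostly by small amounts. All 27 genes of the core list, from adaptors to kinases and ETS targets, were tested; 13 were higher (48.1%), 8 lower (29.6%) and 6 not called, beside 40.2% higher and 39.8% lower among all tested genes. The median log2 fold change was 0.02. The ERK gene Mapk3 had a log2 fold change of −0.10 (adjusted p = 0.00252 by edgeR). The MEK genes Map2k1 and Map2k2 were at −0.05 and 0.20. Nras, which encodes a Ras protein, rose by 0.47, and Sos2, an exchange factor that loads Ras, by 0.61 on the log2 scale. The scaffold gene Ksr1 fell by 0.94 and the adaptor gene Shc1 by 0.57. The 1 core gene past both cutoffs was Elk3, an ETS factor gene, which fell from 44.2 ± 0.273 to 16.2 ± 0.0751 TPM (SD, n = 3 each), with a log2 fold change of −1.42 (adjusted p = 1.29e-35 by edgeR).

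A further list held feedback inhibitors that act mostly on receptor tyrosine kinases by other routes. It also held Socs1 and Socs3, which act on cytokine receptors and were both called lower. Of its 12 genes, 10 were tested. Of these 3 were higher and 6 lower, with 1 not called, beside 40.2% higher and 39.8% lower among all tested genes, and the median log2 fold change was −0.39. Lrig1, whose product promotes receptor breakdown, fell from 62 ± 1.76 to 14.7 ± 0.978 TPM (SD, n = 3 each), with a log2 fold change of −2.04 (adjusted p = 2.68e-43 by edgeR). Sulf2, a sulfatase gene that trims heparan sulfate at the cell surface, fell by 2.57, and Socs3, an inhibitor of cytokine receptors, by 2.24 on the log2 scale. These 3 genes passed both cutoffs downward, as 10.1% of all tested genes did. Errfi1, an inhibitor of EGF receptors, Rasa2 and Cblb were the 3 higher genes, at 0.46, 0.37 and 0.28. Flrt3, with 22 and 1 reads, and Sulf1, with no read, were below the filter. In the fit without the filter Flrt3 was called lower, at −4.08 (adjusted p = 2.67e-05 by edgeR).

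Upstream of the cascade, ligand and receptor genes moved in both directions. Of 22 listed, 14 were tested; 7 were higher (50%), 5 lower (35.7%) and 2 not called, near the 40.2% and 39.8% of all tested genes. The median log2 fold change was 0.36. The ligand gene Pdgfa rose from 12.6 ± 0.735 to 31.8 ± 0.877 TPM (SD, n = 3 each) and the receptor gene Pdgfra from 2.36 ± 0.286 to 8.69 ± 0.298 TPM (SD, n = 3 each), with log2 fold changes of 1.41 and 1.91. The ligand gene Fgf7 fell from 113 ± 6.82 to 22.1 ± 2.37 TPM (SD, n = 3 each), with a log2 fold change of −2.32 (adjusted p = 2.01e-17 by edgeR), and Pdgfb fell by 2.27 on 61 and 13 reads. Fgfr1, by far the most abundant receptor gene listed, rose from 81.1 ± 0.886 to 107.5 ± 3.24 TPM (SD, n = 3 each), with a log2 fold change of 0.45. The next most abundant, Pdgfrb and Erbb2, were called lower, with log2 fold changes of −0.59 and −0.43. Pdgfrb went from 33.0 ± 0.559 to 21.5 ± 1.26 TPM and Erbb2 from 27.7 ± 1.06 to 20.1 ± 0.24 TPM (SD, n = 3 each). Fgfr2 was called lower at −0.26 and Met higher at 0.32, while Fgfr3 was not called. The EGF receptor ligands Hbegf, Ereg and Tgfa rose by 0.56, 0.59 and 0.41, while Areg, with 6 and 35 reads, and Egfr, with 9 and 15, were below the filter. In the fit without the filter Areg was called higher, at 2.41 (adjusted p = 7.11e-05 by edgeR), and Egfr was not called. Fgfr4, with 3 and 15 reads, was then called higher at 2.12 (adjusted p = 0.0217 by edgeR). Pdgfra also stands on the fibroblast marker list, most of whose members fell.

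**Figure D4:**
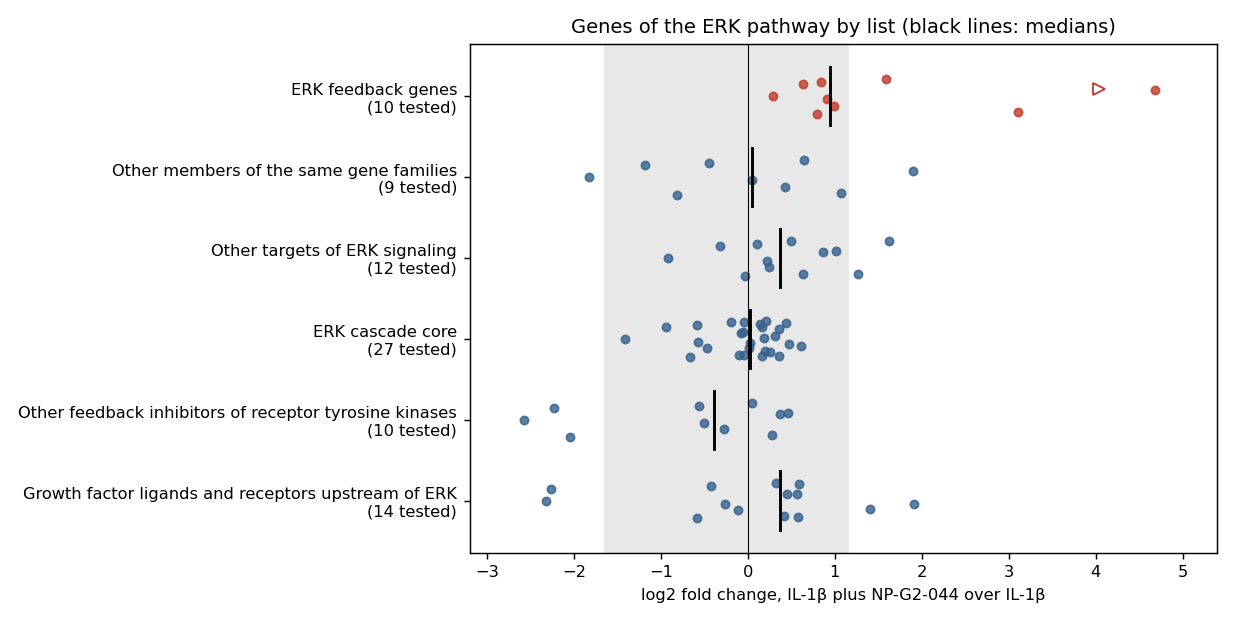
Log2 fold change with the inhibitor relative to IL-1β alone (horizontal axis) of each tested gene in 6 lists of the ERK pathway. Points are genes, black lines the list medians, and the grey band the 5th to 95th percentile of all 11983 tested genes (−1.64 to 1.15). The open triangle is the rough lower bound of Spry4. The ERK feedback genes in red all lie to the right of 0, with a median of 0.95, while every other list spans both sides of 0, with medians from −0.39 to 0.37.

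Over these 5 lists together 72 of 87 genes were tested; 35 were higher (48.6%) and 25 lower (34.7%) with an adjusted p below 0.05 by edgeR, and 12 were not called, beside 40.2% and 39.8% of all tested genes. Past both cutoffs were 7 higher and 8 lower genes, where the shares of all tested genes were 6.48% and 10.1%. The lists and the 10 genes were tested in the same fit, and no test of one list against another was made.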

How the data were processed

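RNA was sequenced from 3 libraries of ATDC5 cells with IL-1β and 3 with IL-1β plus NP-G2-044. Per the labels, the submitters' processing notes name cutadapt, HISAT2 2.0, StringTie and the mm10 build; the annotation and any use of strand in counting are not stated in the sources used. The authors deposited estimated counts per gene (expected counts, 10.17% to 11.06% of them not whole), TPM and FPKM, and group means, which were not used, as was FPKM.

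Counts were rounded, filtered with filterByExpr (minimum count 10), scaled by TMM and fitted in edgeR 4.0.16 (R 4.3.3), whose quasi-likelihood test compared 3 libraries with 3 and no covariate. Benjamini-Hochberg adjustment ran over 11983 genes; the cutoffs were adjusted p below 0.05 and, as in the paper, a log2 fold change beyond 1 either way. These steps were also run on simulated counts in which few genes changed and all shared a common spread. That run does not check the calls in these data, where 80% of tested genes were called. Alternatives used DESeq2 1.42.0, limma 3.58.1, other scalings and filters, a replicate block and 5 libraries in place of 6. Family shares were compared by exact permutation tests.

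All 10 members were named, and of the other lists the genes past both cutoffs, the family relatives and further examples chosen after their values were seen. The members and lists were chosen with earlier results of these data known. The methods call the replicates biological; the labels do not say whether cultures were separate, and p-values measure only the spread between these libraries.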

Additional observations from a re-analysis of the deposited data

How the results depend on the processing

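All 10 genes kept a positive log2 fold change in every fit that held them, and all 10 stayed called higher under DESeq2 size factors, library size alone, DESeq2, no filter, limma on log2(TPM + 1) or log2(TPM + 0.1), and with each library left out. Requiring at least 10 CPM in 3 libraries left 4 of the 10 to test (Dusp4, Etv5, Spred1 and Spred2), with 4 called and 2 past both cutoffs, since fewer genes were tested; over the whole table it gave 484 higher and 680 lower, and 5 lower among the other pathway genes. With limma on log2(TPM + 1), a scale that understates changes of low genes, 2 of the 10 (Dusp4 and Etv5), 4 higher and 5 lower other pathway genes, and 514 higher and 802 lower genes of the whole table passed both cutoffs; Spry4 was then at 0.43 and Spry1 at 0.98. With a library left out 4 to 6 of the 10 passed both cutoffs, 6 without replicate 3 of the IL-1β group, when Dusp5 (1.02) and Etv4 (1.05) crossed 1. Deviations of same-numbered libraries from their group means had correlations of −0.0934, −0.0236 and 0.0259. With 3 libraries per group and a spread not far above read sampling, these values cannot settle whether the numbers pair them. A fit with the replicate number as a block called 10 of the 10, 4 past both cutoffs, with 4.68 for Dusp4, and changed no call of the 10. Paired differences of the shares gave p = 0.25 in the exact test with the block, the smallest 3 pairs allow. Depth limits Spry4, with 0 reads in 1 group, and the Spry1 and Spry2 values, which rest on 65 and 122 reads with IL-1β.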
